A study of Drosophila melanogaster with 6 samples.

Results

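The genes examined here code for the kinases, the phosphatase 2A subunits and the ubiquitin ligase subunit that act on the clock proteins PERIOD (PER) and TIMELESS (TIM) of Drosophila melanogaster. They were taken by symbol, 9 of the 17868 genes listed in the count files, and all 9 were among the 8708 genes tested. RNA sequencing had been done on GFP-positive, DAPI-negative cells sorted from adult brains, about 2000 live cells per library, at zeitgeber time (ZT) 14, that is 14 h after lights-on in a cycle of 12 h light and 12 h dark kept for 5 days. The 3 Prp3-RNAi libraries came from flies with the ClkGAL4 driver and the nuclear marker UAS-GFP-NLS over UAS-Prp3-RNAi, a hairpin transgene against the spliceosome gene Prp3. In the 3 control libraries the cells carried the same driver and marker over a chromosome with no hairpin. Both groups thus carried the driver and GFP, and the control differed by the absence of any hairpin, not by a hairpin against another gene. The driver is active in clock neurons, so the hairpin was expressed in the cells that were sorted. The titles pair every control library with the Prp3-RNAi library of its number; the labels do not say what a pair shares or whether libraries came from separate flies, so the p-values measure the spread between these libraries.

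PER and TIM accumulate at night, enter the nucleus and repress their own transcription, and the timing of this cycle is set largely by phosphorylation. Doubletime (gene dco), casein kinase 2 (genes CkIIalpha and CkIIbeta), Nemo (gene nmo) and the GSK-3 kinase Shaggy (gene sgg) add phosphates to PER or TIM, and protein phosphatase 2A (catalytic subunit mts, regulatory subunits wdb and tws) removes them. Slimb (gene slmb), the F-box subunit of an SCF ubiquitin ligase, binds phosphorylated PER and marks it for degradation. Most of these regulators act on many proteins besides PER and TIM in all tissues.

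The libraries held 24477244 to 32551739 gene counts. The targeted gene Prp3 had 27, 28.3 and 10.8 CPM (counts per 1000000 gene counts, scaled by TMM) in Prp3-RNAi libraries 1 to 3, against 45.6, 68.8 and 29.4 CPM in control libraries 1 to 3, lower in 3 of 3 pairs. The fitted log2 fold change, -1.16 with a standard error (SE) of 0.24, was not called by edgeR's quasi-likelihood test, where the adjusted p-value was 0.384. All 7 clock neuron markers (per, tim, Clk, cyc, cry, Pdf and vri) and all 4 neuron markers had counts in all 6 libraries. Their summed level was uneven for the clock markers, 1181 to 21041 CPM in Prp3-RNAi libraries and 3862 to 18361 CPM in control libraries, with Pdf alone between 155 and 19961 CPM. The marker cry had 85.2, 81.1 and 90.9 CPM in Prp3-RNAi libraries 1 to 3, against 222, 190 and 105 CPM in control libraries 1 to 3 (edgeR adjusted p = 0.428). The marker vri had 165, 238 and 227 CPM in Prp3-RNAi libraries 1 to 3, against 322, 256 and 251 CPM in control libraries 1 to 3 (edgeR adjusted p = 0.573). Both were lower in Prp3-RNAi in 3 of 3 pairs, with no overlap between the groups, as for 5.34% of tested genes in this direction. Neither was called by edgeR, and their part in the results was not tested. Of the other clock markers, cyc (log2 fold change 0.30), Clk (0.21) and per (0.04) were higher in Prp3-RNAi in 2 of 3 pairs each. The markers tim (-0.17) and Pdf (-3.46) were higher in 1 of 3 pairs each. The 7 glia markers summed to 203 to 424 CPM in Prp3-RNAi libraries and 176 to 623 CPM in control libraries. Over the 6 libraries, Gs2 ranged from 61.2 to 502 CPM and Eaat1 from 27.2 to 98.3 CPM. Gat ranged from 7.25 to 58.2 CPM and alrm from 3.36 to 43.4 CPM. The remaining glia markers moody, wrapper and repo did not exceed 8.53, 3.5 and 1.56 CPM in any library. The 10 photoreceptor markers summed to 11.7 to 111 CPM in Prp3-RNAi and 4.28 to 70.8 CPM in control libraries. Rh2 alone had 60.1 CPM in Prp3-RNAi library 1. The marker ninaC had 7.54, 2 and 3.01 CPM in Prp3-RNAi libraries 1 to 3, against 0.0313, 0.0707 and 0.217 CPM in control (edgeR adjusted p = 0.435). Its groups did not overlap, as for 6.27% of tested genes in this direction. Log2 fold changes were also above 0 for Arr2 (3.04), trp (1.35) and Arr1 (0.53), and below 0 for ninaE (-0.40), Rh4 (-1.53) and Rh5 (-1.17). The 4 muscle markers stayed at or under 0.52 CPM in sum, and the 6 fat body and hemocyte markers reached at most 0.753 CPM in Prp3-RNAi libraries, against 0.251, 4.07 and 75.3 CPM in control libraries 1 to 3. In sorted pools of cells, fewer cells of a type and less RNA per cell cannot be told apart.

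None of the 9 genes was called different between Prp3-RNAi and control clock neurons. At an adjusted p-value under 0.05, 0 of 9 were called by edgeR's quasi-likelihood test, as were 0 of the 8708 genes tested (0% called). At an unadjusted p-value under 0.05 in edgeR's test, 0 of 9 were reached, beside 869 of all tested genes (9.98%). Among the 4372 tested genes with a mean of at least 33 CPM, 637 (14.6%) had such a p-value. DESeq2 called 0 of 9 as well, beside 380 of all tested genes (4.36%), and limma-voom called 0 of 9, beside 4 genes (0.0459%). The fitted log2 fold changes, Prp3-RNAi over control, ran from -0.12 to 0.12, 5 above 0 and 4 below 0, with a median of 0.01, which was also the median over all tested genes. The median absolute log2 fold change was 0.10 over the 9 genes and 0.29 over all tested genes. Since low counts spread more, the 4372 tested genes with a mean of at least 33 CPM, the level of the least expressed of the 9, are the nearer comparison: their median absolute log2 fold change was 0.18, and 35.4% of them had one no larger than 0.12. The groups did not overlap for 1 of the 9 genes (11.1%), wdb, as for 11.6% of all tested genes. The width of the 95% intervals differed from gene to gene, with standard errors of 0.09 to 0.25, and says how large a change these libraries leave room for.

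**Figure D1:**
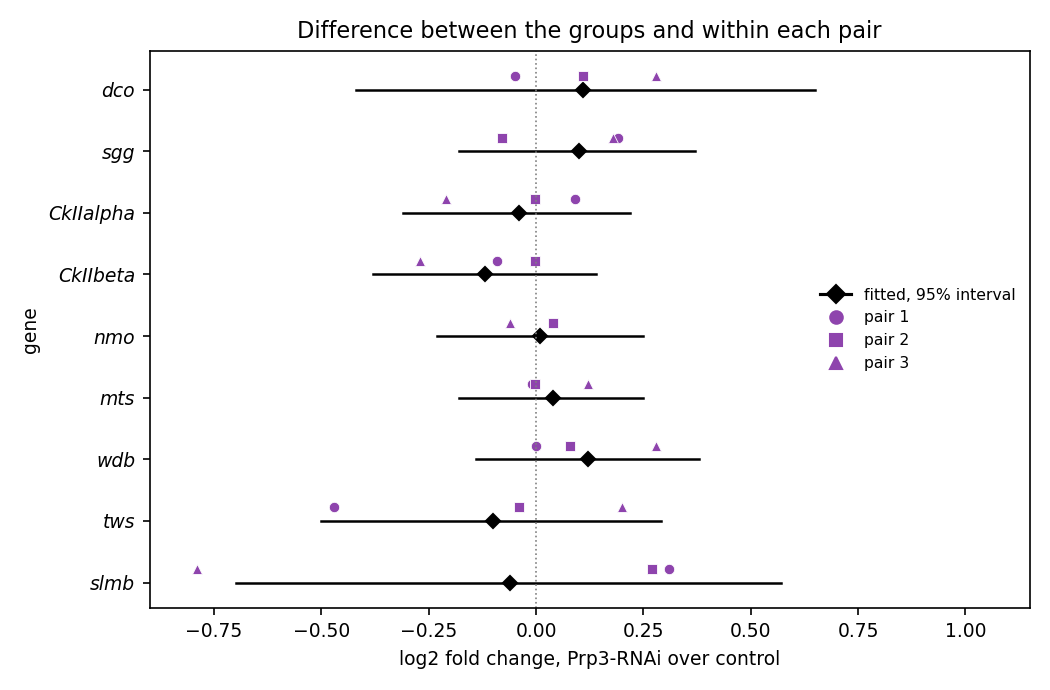
Log2 fold change of each gene, Prp3-RNAi over control (horizontal axis), with the fitted value as a diamond, its 95% interval as a line, and the 3 within-pair differences as purple symbols above it. All 9 intervals cross 0, and the widest belong to slmb and dco.

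The genes differed more among themselves than between the groups. Levels were compared per kb of annotated exon, since longer transcripts give more counts, and the union of all annotated exons understates the level of genes with many alternative exons. In descending order of the mean over the 6 libraries, mts stood at 325 CPM per kb, CkIIalpha at 243, CkIIbeta at 98.3, wdb at 65.5, nmo at 44.7, tws at 43.2, slmb at 34.1, sgg at 24.9 and dco at 6.9 CPM per kb. By this measure mts lay above 96.8% of the tested genes with an annotated length and dco above 37.2%. The place of dco, the best known of the clock kinases, at the foot of the list held in every library: its highest value, 8.33 CPM per kb, was below the lowest of sgg, the next above it, at 22.2 CPM per kb. The steps from CkIIalpha to CkIIbeta, from CkIIbeta to wdb and from wdb to nmo also held in 6 of 6 libraries with no overlap of ranges. The remaining neighbours were not apart beyond their spread, since their ranges overlapped. The level of mts exceeded that of CkIIalpha in 5 of 6 libraries, nmo exceeded tws in 3 of 6, tws exceeded slmb in 4 of 6 and slmb exceeded sgg in 5 of 6.

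**Figure D2:**
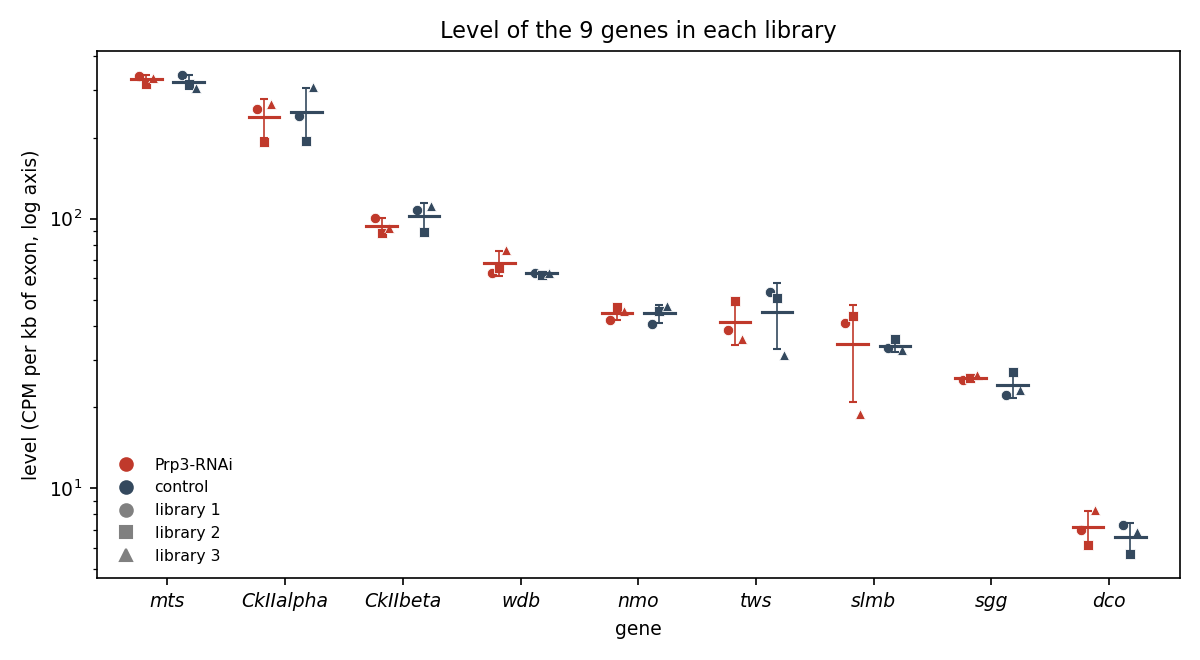
Level of each gene in CPM per kb of exon (log axis) in each library, with Prp3-RNAi in red left of control in dark blue, a symbol for each library number, and bars for the mean and SD of 3 libraries. From mts at the left to dco at the right the genes span 325 to 6.9 CPM per kb, while the groups of each gene lie at similar heights.

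The gene dco (FBgn0002413, chromosome 3R, 31054085 to 31061210, minus strand, build BDGP6.54) codes for Doubletime, the casein kinase 1 whose phosphorylation of PER leads to its degradation. It had 1012, 927 and 1164 counts in Prp3-RNAi libraries 1 to 3 and 1113, 772 and 758 counts in control libraries 1 to 3. Scaled to depth this was 33.6, 29.4 and 39.9 CPM in Prp3-RNAi libraries, against 34.9, 27.3 and 32.8 CPM in control libraries. The groups overlapped, and Prp3-RNAi library 3 alone lay above every control library. The mean was 34.3 ± 5.25 CPM in Prp3-RNAi and 31.7 ± 3.91 CPM in control (SD, n = 3 each). In edgeR's test the log2 fold change was 0.11 (SE 0.21, 95% interval -0.42 to 0.65, adjusted p-value 0.902), which spans 0.745-fold to 1.57-fold. Together with slmb, dco was the gene for which these data bound a change least tightly.

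The gene sgg (FBgn0003371, chromosome X, 2633952 to 2679553, plus strand) codes for Shaggy, which phosphorylates TIM and promotes nuclear entry of the PER and TIM complex. It had 316, 320 and 329 CPM in Prp3-RNAi libraries 1 to 3, against 278, 338 and 290 CPM in control libraries 1 to 3. The Prp3-RNAi libraries lay close together, with a coefficient of variation of 2.04%, inside the wider range of the control libraries, where it was 10.5%. Its log2 fold change was 0.10 (SE 0.11, 95% interval -0.18 to 0.37, adjusted p-value 0.819 in edgeR's test). It is the most complex of the 9 loci, with 19 annotated transcripts and 42 distinct introns. Over 11.8% of its exon length it overlaps lncRNA:CR45197 on the same strand, and reads there may not have been assigned to it.

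Casein kinase 2 is made of catalytic alpha and regulatory beta subunits and phosphorylates PER in the cytoplasm before nuclear entry. The catalytic subunit gene CkIIalpha (FBgn0264492, chromosome 3L, 23097072 to 23103460, plus strand) had 576, 436 and 599 CPM in Prp3-RNAi libraries 1 to 3 and 543, 437 and 694 CPM in control libraries 1 to 3. Library 2 of each group was low and the pair nearly equal, and the highest value was that of control library 3. Its log2 fold change was -0.04 (SE 0.11, 95% interval -0.31 to 0.22, adjusted p-value 0.922 in edgeR's test). The regulatory subunit gene CkIIbeta (FBgn0000259, chromosome X, 11792533 to 11801587, plus strand) had 578, 507 and 525 CPM in Prp3-RNAi libraries 1 to 3 and 614, 508 and 633 CPM in control libraries 1 to 3. No pair was higher in Prp3-RNAi, with log2 differences of -0.09 in pair 1, -0.0031 in pair 2 and -0.27 in pair 3. CkIIbeta had the smallest p-value of the 9 genes, 0.29 unadjusted and 0.744 adjusted in edgeR's test, with a log2 fold change of -0.12 (SE 0.10, 95% interval -0.38 to 0.14).

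The gene nmo (FBgn0011817, chromosome 3L, 7979046 to 8054147, plus strand) codes for Nemo, which phosphorylates PER near the region that Doubletime acts on. It had 291, 326 and 315 CPM in Prp3-RNAi libraries 1 to 3, against 283, 317 and 329 CPM in control libraries 1 to 3. The ranges of the groups nearly coincided, and the means were 311 ± 17.8 CPM in Prp3-RNAi and 309 ± 23.7 CPM in control (SD, n = 3 each). Of the 9 log2 fold changes that of nmo, 0.01 (SE 0.10, 95% interval -0.23 to 0.25, adjusted p-value 0.986 in edgeR's test), was the smallest in size and left room for 0.85-fold to 1.19-fold. The gene holds the longest intron of the 9, 58892 bases.

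Protein phosphatase 2A counters these kinases and stabilises PER; its regulatory subunits Widerborst (wdb) and Twins (tws) direct the catalytic subunit Microtubule star (mts) to substrates. The catalytic gene mts (FBgn0004177, chromosome 2L, 7827650 to 7833576, plus strand) had 1053, 980 and 1030 CPM in Prp3-RNAi libraries 1 to 3 and 1061, 981 and 946 CPM in control libraries 1 to 3. Pairs 1 and 2 were nearly equal, and pair 3 was higher in Prp3-RNAi by a log2 difference of 0.12. Fitted over the pairs, the log2 fold change was 0.04 (SE 0.09, 95% interval -0.18 to 0.25, adjusted p-value 0.919 in edgeR's test), the narrowest interval of the 9.

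The regulatory subunit gene wdb (FBgn0027492, chromosome 3R, 27561675 to 27582241, minus strand) had 483, 502 and 586 CPM in Prp3-RNAi libraries 1 to 3 and 483, 473 and 483 CPM in control libraries 1 to 3. It was the 1 gene of the 9 whose groups did not overlap, by 0.09 CPM between Prp3-RNAi library 1 and the highest control library, and Prp3-RNAi library 3 stood above the rest. Within the pairs the log2 differences were 0.0003, 0.08 and 0.28, higher in 3 of 3 but nearly 0 in pair 1. Fitted over the pairs, the log2 fold change was 0.12 (SE 0.10, 95% interval -0.14 to 0.38, adjusted p-value 0.748 in edgeR's test).

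Also a regulatory subunit gene, tws (FBgn0004889, chromosome 3R, 10126129 to 10139772, minus strand) had 196, 250 and 181 CPM in Prp3-RNAi libraries 1 to 3 and 271, 258 and 157 CPM in control libraries 1 to 3. Both groups were low in library 3, and control library 3 was the lowest of all. The pairs did not go one way, with log2 differences of -0.47, -0.04 and 0.20. Its fitted log2 fold change was -0.10 (SE 0.16, 95% interval -0.50 to 0.29, adjusted p-value 0.873 in edgeR's test), and it changed sign to 0.09 without pair 1.

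The gene slmb (FBgn0283468, chromosome 3R, 21119252 to 21127485, minus strand) varied most between libraries. It had 143, 151 and 65.9 CPM in Prp3-RNAi libraries 1 to 3, against 115, 125 and 114 CPM in control libraries 1 to 3. The 2 highest values and the lowest value were all in the Prp3-RNAi group, whose coefficient of variation was 39.2%, against 5.27% in control. The value of Prp3-RNAi library 3 rested on 1925 counts, against 2627 counts in control library 3. The log2 differences were 0.31, 0.27 and -0.79 in pairs 1 to 3, and the fitted log2 fold change was -0.06 (SE 0.25, 95% interval -0.70 to 0.57, adjusted p-value 0.957 in edgeR's test). Without pair 3 it was 0.29, again not called by edgeR (p-value 0.0987 before and 0.695 after adjustment). Prp3-RNAi library 3 was also the lowest in Prp3, at 10.8 CPM, and control library 3 was the lowest of the control libraries, at 29.4 CPM. Pdf was at 19961 CPM in Prp3-RNAi library 3, against 302 and 155 CPM in Prp3-RNAi libraries 1 and 2. In control libraries 1 to 3 it was at 15942, 2566 and 17385 CPM, so Prp3-RNAi library 3 was nearer to control in Pdf. The part of these differences in the slmb value was not tested.

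Ratios within a library do not depend on how libraries are scaled, and they were read for subunits of an enzyme and for kinases against the phosphatase. They are ratios of CPM with no correction for length, so only their differences between libraries are of use. The log2 ratio of CkIIalpha to CkIIbeta was -0.01, -0.22 and 0.19 in Prp3-RNAi libraries 1 to 3, against -0.18, -0.22 and 0.13 in control libraries 1 to 3. The groups overlapped, and the catalytic and regulatory subunits of casein kinase 2 stayed within a ratio of 0.861 to 1.14 over the 6 libraries. Both wdb and tws code for regulatory subunits that join mts. Their log2 ratio, wdb to tws, was 1.30, 1.01 and 1.70 in Prp3-RNAi libraries and 0.83, 0.88 and 1.62 in control libraries. It was higher in Prp3-RNAi in 3 of 3 pairs, by 0.47, 0.13 and 0.08, but varied more over library numbers than between the groups, whose means were 1.34 ± 0.35 in Prp3-RNAi and 1.11 ± 0.44 in control (SD, n = 3 each). The log2 ratio of dco to mts averaged -4.91 ± 0.19 in Prp3-RNAi and -4.98 ± 0.17 in control, and that of sgg to mts averaged -1.67 ± 0.06 in Prp3-RNAi and -1.73 ± 0.20 in control. Both overlapped between the groups.

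**Figure D3:**
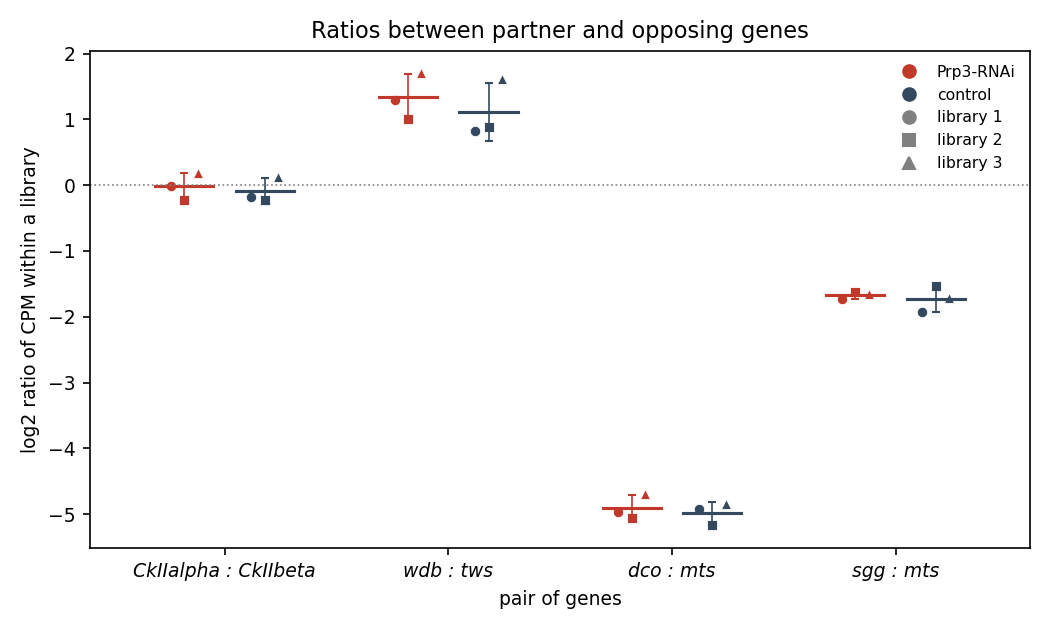
Log2 ratio of CPM between 2 genes of the same library (vertical axis) for 4 pairs of genes, with Prp3-RNAi in red left of control in dark blue, a symbol for each library number, and bars for the mean and SD of 3 libraries. The groups overlap for all 4 pairs, and the spread over libraries is widest for wdb to tws.

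Likeness of the courses over the libraries was measured as the root mean square difference of log2 CPM over the 6 libraries after the mean of each gene was taken off, so that 0 means the same profile. The members most alike were nmo and sgg, at 0.101, followed by mts and wdb, at 0.110. Of the 8708 tested genes, the number nearer to a gene than its nearest member was 43 for sgg, 56 for nmo, 72 for wdb, 104 for mts, 133 for dco, 334 for CkIIbeta, 524 for CkIIalpha, 984 for tws and 1165 for slmb, whose nearest member, tws, was at 0.378. The nearest of all tested genes was Rab7 for CkIIalpha (0.031), Mapmodulin for CkIIbeta (0.030), CG12795 for sgg (0.035) and dgrn for dco (0.037). It was ctp for nmo (0.041), CSN4 for mts (0.047), Slc25A46a for wdb (0.038), ATPCL for tws (0.072) and CG5854 for slmb (0.071). With 6 libraries and 8708 genes, close profiles are found for almost any gene, and these names are a description only. Since CG5854 was picked for its likeness to slmb, its low value in Prp3-RNAi library 3 follows from that choice. It had 22.7, 23.2 and 10.4 CPM in Prp3-RNAi libraries 1 to 3, against 20.1, 19.8 and 16.8 CPM in control libraries 1 to 3.

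The transcripts of the substrates were not called by edgeR's test, the only one read for them. The gene tim had 566, 631 and 663 CPM in Prp3-RNAi libraries 1 to 3 and 830, 731 and 557 CPM in control libraries 1 to 3, with a log2 fold change of -0.17 (95% interval -0.60 to 0.26, adjusted p-value 0.786 in edgeR's test). The gene per had 13.3, 23.9 and 18.2 CPM in Prp3-RNAi libraries and 9.99, 33.4 and 15.9 CPM in control libraries, and its interval, -0.82 to 0.90, was wider than that of any of the 9 regulators.

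Other genes of the same steps were read from a list of 53 genes, of which 49 were tested: relatives and partners of the kinases, other phosphatase 2A genes, protein phosphatase 1, the SCF ligase and COP9 signalosome, O-GlcNAc enzymes and other kinases linked to the clock. edgeR's quasi-likelihood test called 0 of them, and 6 had an unadjusted p-value under 0.05 (12.2%, beside 9.98% of all tested genes and 14.6% of the 4372 with a mean of at least 33 CPM), 3 higher (beside 4.71% of all tested genes) and 3 lower (beside 5.27%) in Prp3-RNAi. DESeq2 called 3, rl, NiPp1 and SkpA, beside 4.36% of all tested genes. The median log2 fold change of the 49 was 0.04, and 25 were above 0 and 24 below 0.

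The kinase gene rl, which codes for the fly ERK MAP kinase, had the smallest p-value of the 49. It had 271, 206 and 314 CPM in Prp3-RNAi libraries 1 to 3, against 487, 320 and 540 CPM in control libraries 1 to 3. The groups did not overlap, as for 5.34% of tested genes in this direction, and all 3 pairs were lower in Prp3-RNAi, with log2 differences of -0.85, -0.64 and -0.79. The fold change on the log2 scale was -0.76 (SE 0.10, 95% interval -1.01 to -0.50), and edgeR's p-value was 0.000521 before and 0.252 after adjustment. Over the 10 alternatives it ran from -0.81 to -0.70, with adjusted p-values from 6.39e-10 in DESeq2, the only call, to 0.834 in edgeR with no replicate block. In the same list the insulin pathway kinase gene Akt1 had 24.1, 11.6 and 29 CPM in Prp3-RNAi libraries and 12.2, 8.17 and 9.66 CPM in control libraries, higher in 3 of 3 pairs (log2 fold change 1.02, SE 0.40, edgeR's adjusted p-value 0.492).

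Among protein phosphatase 1 genes, 2 of 6 tested had an unadjusted p-value under 0.05 (33.3%, beside 9.98% of all tested genes and 14.6% of those with a mean of at least 33 CPM). NiPp1, the gene of a nuclear inhibitor of this phosphatase, had 65.7, 68.2 and 93.8 CPM in Prp3-RNAi libraries 1 to 3, against 39.4, 41.2 and 54 CPM in control libraries 1 to 3. Its groups did not overlap, as for 6.27% of tested genes in this direction, and the log2 differences of the pairs were 0.74, 0.73 and 0.80. After adjustment, its log2 fold change of 0.75 (SE 0.15) had a p-value of 0.384 in edgeR and of 0.0212 in DESeq2. The catalytic subunit gene flw was higher in 3 of 3 pairs (log2 fold change 0.27, SE 0.10, edgeR's adjusted p-value 0.471), while its paralogs Pp1-87B and Pp1alpha-96A had log2 fold changes of -0.16 and 0.07.

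The list of 17 SCF, cullin and COP9 signalosome genes also counted ctrip and Usp8, which are none of these. Of the 17, 1 had an unadjusted p-value under 0.05 in edgeR's test (5.88%). The share was 9.98% over all tested genes and 14.6% over those with a mean of at least 33 CPM. SkpA, the adaptor that joins Slimb and other F-box proteins to the cullin, had 848, 671 and 1012 CPM in Prp3-RNAi libraries 1 to 3, against 1115, 785 and 1299 CPM in control libraries 1 to 3. The groups overlapped because library 2 was low in both, and each pair was lower in Prp3-RNAi, by log2 differences of -0.39, -0.23 and -0.36. Fitted together they gave -0.33 on the log2 scale (SE 0.09), with adjusted p-values of 0.428 in edgeR and 0.0025 in DESeq2. Its partner Cul1 had a log2 fold change of -0.31, and jet, the F-box gene linked to TIM degradation by light, had one of -0.13, with intervals that crossed 0.

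The other phosphatase 2A list held 1 gene of 10 tested at an unadjusted p-value under 0.05 (10%). The share was 9.98% over all tested genes and 14.6% over those with a mean of at least 33 CPM. The 1 gene was Mob4, a subunit of the STRIPAK complex that contains this phosphatase. Mob4 had 274, 315 and 291 CPM in Prp3-RNAi libraries 1 to 3 and 359, 347 and 363 CPM in control libraries 1 to 3. The groups did not overlap, as for 5.34% of tested genes in this direction (log2 fold change -0.28, SE 0.10, adjusted p-value 0.48 in edgeR's test). The scaffold subunit gene Pp2A-29B had a log2 fold change of -0.10. The 3 genes of the casein kinase 1 list, the 2 tested of the casein kinase 2 list and the 2 O-GlcNAc genes had none at this level. The smallest p-values in these lists were 0.306 for Bdbt, a partner of Doubletime (log2 fold change -0.19), 0.108 for CkIIalpha-i1 (-0.53, lower in 3 of 3 pairs) and 0.205 for sxc, the O-GlcNAc transferase gene (-0.14). The genes not tested for low counts were CkIIbeta2, CG4733, Pp1-13C and gskt, and gskt, the paralog of sgg, had counts in 1 of the 6 libraries.

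**Figure D4:**
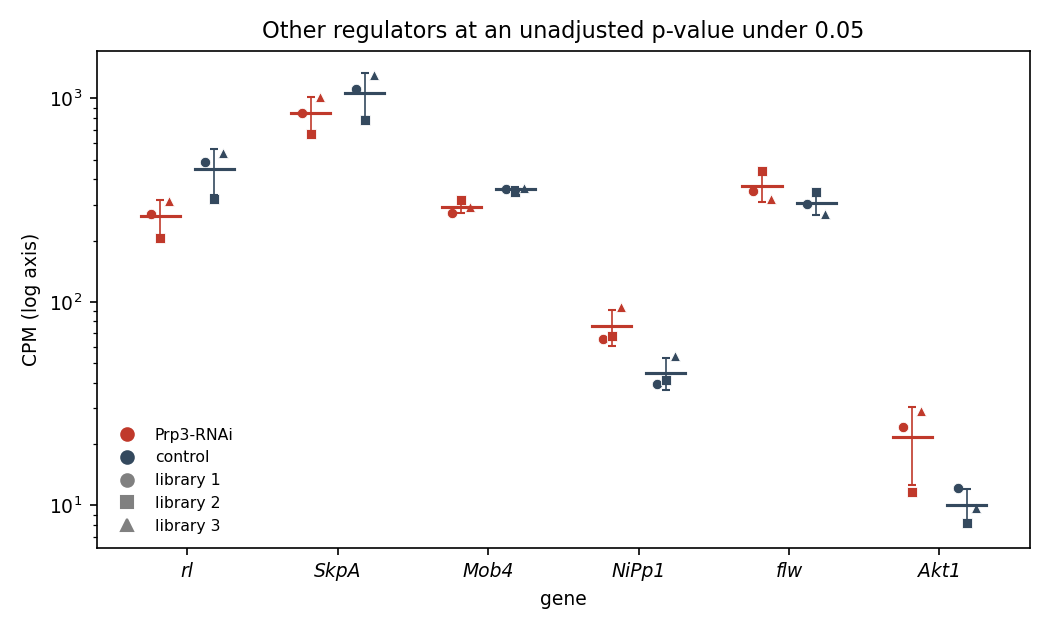
CPM (log axis) of the 6 other regulators with an unadjusted p-value under 0.05, with Prp3-RNAi in red left of control in dark blue, a symbol for each library number, and bars for the mean and SD of 3 libraries. The groups are apart for rl, NiPp1 and Mob4 and overlap for SkpA, flw and Akt1.

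**Figure D5:**
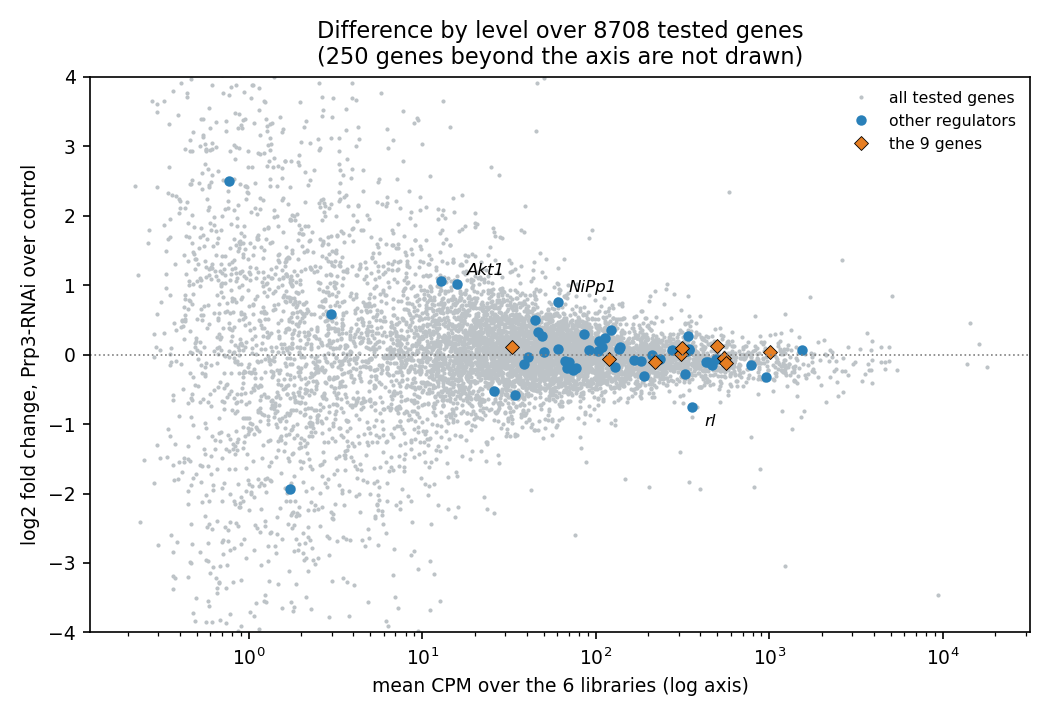
Log2 fold change, Prp3-RNAi over control (vertical axis), against mean CPM over the 6 libraries (log axis) for 8708 tested genes in grey, the other regulators in blue and the 9 genes in orange; 250 genes beyond a log2 fold change of 4 in size are not drawn. The 9 genes lie between 33 CPM and the upper end of the levels, none beyond 0.12 in size, and rl lies at -0.76.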

How the data were processed

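The authors deposited, per library, whole-number read counts per gene, raw and not pooled, in the layout of STAR's gene counts; Trim Galore 0.6.7, STAR 2.7.0a and build dm6 are named per the submitters' processing notes. The annotation used for counting is not given in the sources used here. Counts of both strands together were used. Reads not assigned to a single gene (unmapped, multimapping, without feature, ambiguous), 18.5% to 24.4% of a library, were left out.

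Genes kept by filterByExpr (min.count 10, min.total.count 15) were scaled by TMM and tested with edgeR 4.0.16 (quasi-likelihood, two-sided, R 4.3.3), Prp3-RNAi over control, with the replicate number as a block because the titles state the pairs, and Benjamini-Hochberg adjustment over all tested genes. Deviations from group means correlated at 0.0458, 0.266 and 0.236 between libraries with the same number. Standard errors are the log2 fold change over the square root of F. Intervals are 95%, from the moderated degrees of freedom. DESeq2 1.42.0 and limma 3.58.1 gave alternatives. The edgeR step was tested on simulated counts that held no pair effect. Of the 8708 tested genes, 200 were given a log2 fold change of 2 in size, and 8393 genes passed the filter again. Of the changed genes among these 8393, 54.5% were recovered, and 8.77% of the calls were unchanged genes. CPM are scaled by TMM, and log2 CPM has a prior count of 2. Exon lengths, positions and overlaps are from Ensembl's BDGP6.54 annotation (dm6 coordinates), matched by symbol for 17801 genes.

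Low-input amplification copies molecules, so reads are not independent molecules, and the precision is set by the 3 libraries per group. The members and lists were chosen with earlier results of these data known. Named were the 9 genes, Prp3, per and tim, list genes at an unadjusted p-value under 0.05 or, where a list had none, its smallest p-value, and the gene nearest in profile to each of the 9. Cul1, jet, Pp2A-29B, cry, vri, cyc, Clk, Pdf, the flw paralogs and the genes not tested were named after their values were seen. So were the single glia and photoreceptor markers, ctrip and Usp8. No sequence is printed.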

Additional observations from a re-analysis of the deposited data

How the results depend on the processing

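The 9 genes had 0 calls and 0 unadjusted p-values under 0.05 in all 10 alternatives, among them the fit with no replicate block, whose smallest p-value for the 9 was 0.421. Signs changed for CkIIalpha, nmo, mts, tws and slmb, and the values of tws and slmb were not all near 0. With a pair left out in turn, the log2 fold change ran from -0.10 to 0.04 for CkIIalpha, -0.0030 to 0.04 for nmo, -0.0046 to 0.07 for mts, -0.26 to 0.09 for tws and -0.24 to 0.29 for slmb. For nmo it was -0.0041 with RLE size factors and -0.0040 with DESeq2, and for slmb 0.02 with no replicate block and 0.03 with limma-voom. The value of 0.29 for slmb was that without pair 3. The count of all called genes, 0 in the edgeR fit with the replicate block, was 8 with no replicate block, 11 with at least 1 count, 4 with at least 50 counts in 3 libraries, 380 with DESeq2, 4 with limma-voom and 0 to 4 when a pair was left out. At an unadjusted p-value under 0.05 it was 421 with no replicate block and 529 to 756 with a pair left out, against 869. For the other regulators DESeq2 called 3; 3 had an unadjusted p-value under 0.05 with no replicate block and 2 to 5 with a pair left out, against 6. Prp3 was called by DESeq2 (-1.17, adjusted p-value 0.00883). Summing the strand columns lowered the mean level of all 9 genes, such as sgg from 312 to 293 CPM and CkIIalpha from 548 to 513 CPM. The fall was more than 1 SD between libraries for nmo (310 to 291 CPM) and mts (1008 to 946 CPM). Of the 9 genes, nmo and mts had the smallest SD of log2 CPM, 0.089 and 0.066. The cause of these shifts was not tested. With 3 pairs, a change of any of the 9 genes inside its interval cannot be told from 0.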
